A study of Mus musculus with 2 samples.

Results

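The genes described here encode the enzymes and metal-binding proteins that hold reactive oxygen, peroxides and electrophiles in check in the gastrocnemius, a calf muscle of mixed fiber type, of mice. They were chosen by name: every gene whose symbol starts with Gsta, Gstm, Gstp, Gstt, Gsto, Mgst, Gpx or Prdx followed by a digit, together with Mt1 to Mt3, Sod1 to Sod3, Cat, Gclc, Gclm, Gss, Gsr, Txn1, Txn2, Txnrd1, Txnrd2, Nqo1, Hmox1, Nfe2l2 and Keap1. This rule named 65 genes in the RefSeq gene table, of which 57 were protein coding and 8 were pseudogenes. A probe was found for 56 of them, out of 21366 named genes on the array. Gsta1 and the 8 pseudogenes had no probe. RNA was compared between FOXO1-Tg mice, which overexpress the transcription factor FOXO1 in skeletal muscle, and wild-type (WT) control mice, all of them male and 25 weeks old. The FOXO1-Tg sample was a pool of 5 mice and the WT sample a pool of 6 mice, and 1 Agilent mouse array was hybridized with the cyanine 3-labeled RNA of each. The promoter that drives the transgene is not given in the sources used here. With 1 array per group there is no replicate check, so no p-value is given and differences between mice cannot be seen.

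Cells make superoxide during respiration and from oxidases, superoxide dismutases turn it into hydrogen peroxide, and catalase, glutathione peroxidases and peroxiredoxins then remove the peroxide. Glutathione peroxidases and glutathione transferases draw on glutathione, a cysteine-containing tripeptide, whereas peroxiredoxins mostly draw on thioredoxin. Metallothioneins bind zinc and copper through clusters of cysteine residues, and many of these genes can be switched on by the transcription factor NRF2, which KEAP1 otherwise marks for degradation. In skeletal muscle, which respires at widely changing rates, this network is best known for buffering the peroxide made during contraction.

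The deposited value of a spot is its processed signal, a fluorescence intensity with the background subtracted. Each signal was divided by its array's 75th percentile (844 for the FOXO1-Tg pool and 771 for the WT pool), and ratios below are log2 of FOXO1-Tg over WT after this scaling. Every ratio therefore lies slightly below the one that the bare signals give. On the FOXO1-Tg array 65.8% of spots, and on the WT array 65.5%, were well above background, and 0 spots were saturated on either. Ratios carried a median scanner error of 0.20, a measure of the array reading that leaves out differences between mice. Foxo1 itself had signals of 279457 in the FOXO1-Tg pool and 4540.4 in the WT pool on its brighter probe (log2 ratio 5.81), while a second Foxo1 probe had 3188 in the FOXO1-Tg pool and 2853 in the WT pool (0.03). Of 12 muscle fiber markers, all were detected, at a list median of -0.14. The myoglobin gene Mb was past 2-fold lower in FOXO1-Tg muscle, 1 of the 12, beside 3.86% of all detected genes.

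A gene was called detected where its probe was well above background on at least 1 array, and was represented by its brightest detected probe. Of the 56 genes with a probe, 51 were detected in both pools, 1 (Gstt4) in that of FOXO1-Tg mice alone and 4 in none. The last 4 were Gpx5, Gpx6, Gstp3 and Prdx6b. More than 2-fold higher in the FOXO1-Tg pool were 5 of the 52 detected genes (9.62%), beside 4.2% of all 16660 detected genes. They were Gstt4, Gpx3, Mgst2, Gsta3 and Mt2. None was more than 2-fold lower, beside 3.86% of all genes. Between 1.5-fold and 2-fold higher were 4 more, Mt1, Sod3, Gsto2 and Gpx8, so that 9 (17.3%) lay past 1.5-fold higher, beside 9.18% of all genes. Past 1.5-fold lower was 1, Gsta4, beside 10.8% of all genes. The other 42 detected genes differed by less than 1.5-fold. Of the 51 genes detected on both arrays, 28 had a ratio above 0 and 23 below, and 35 lay within 2 scanner errors of 0. Over all genes detected on both arrays, 41.7% had a ratio above 0. The median log2 ratio was 0.07 over the 52 genes, with Gstt4 at its bound, and -0.07 over the 15493 genes detected on both arrays. The differences were thus held by a few genes from several families, and most of the network differed little between the pools.

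**Figure D1:**
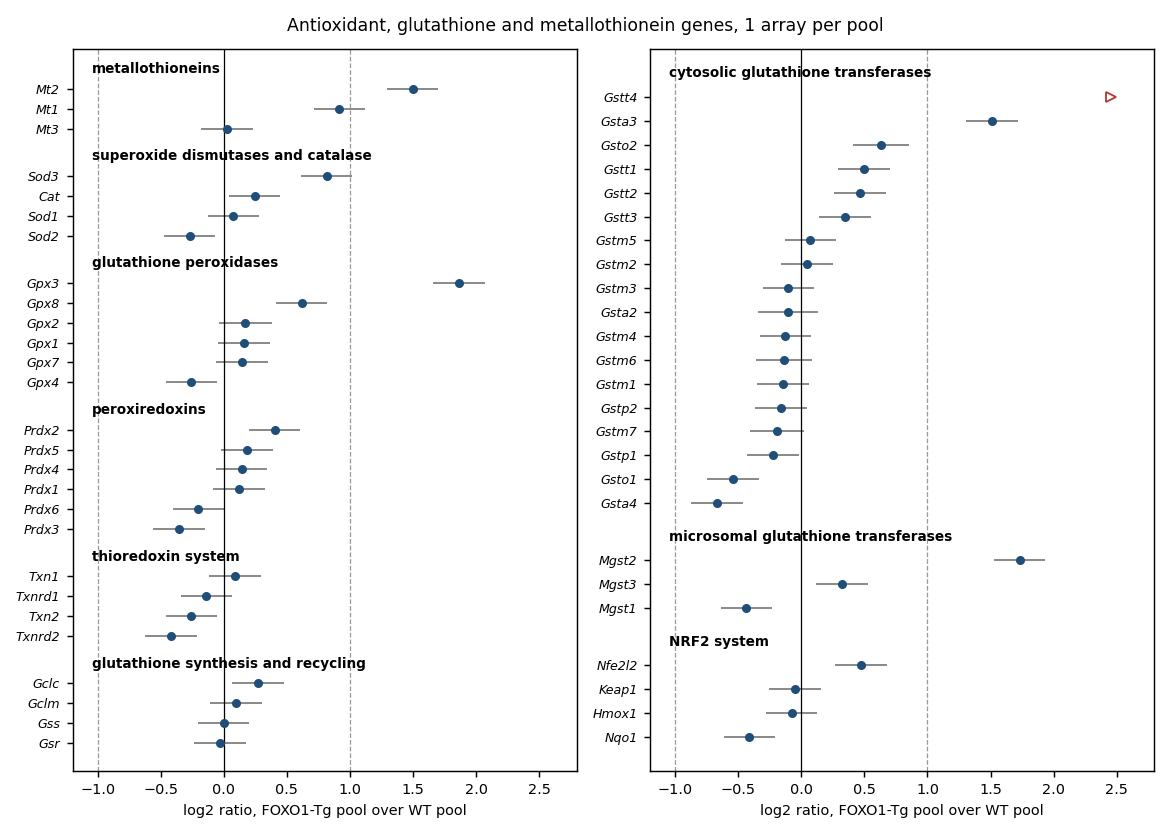
Log2 ratio of FOXO1-Tg over WT for the 52 detected antioxidant, glutathione and metallothionein genes, grouped by role, with bars for the scanner error and dashed lines at 2-fold. The red triangle is Gstt4 at its bound of 2.45 in the main setting, since it was detected in the FOXO1-Tg pool only. Gpx3 at 1.87, Mgst2 at 1.73, Gsta3 at 1.51 and Mt2 at 1.498 lie past the upper line, and no gene lies past the lower line.

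**Figure D2:**
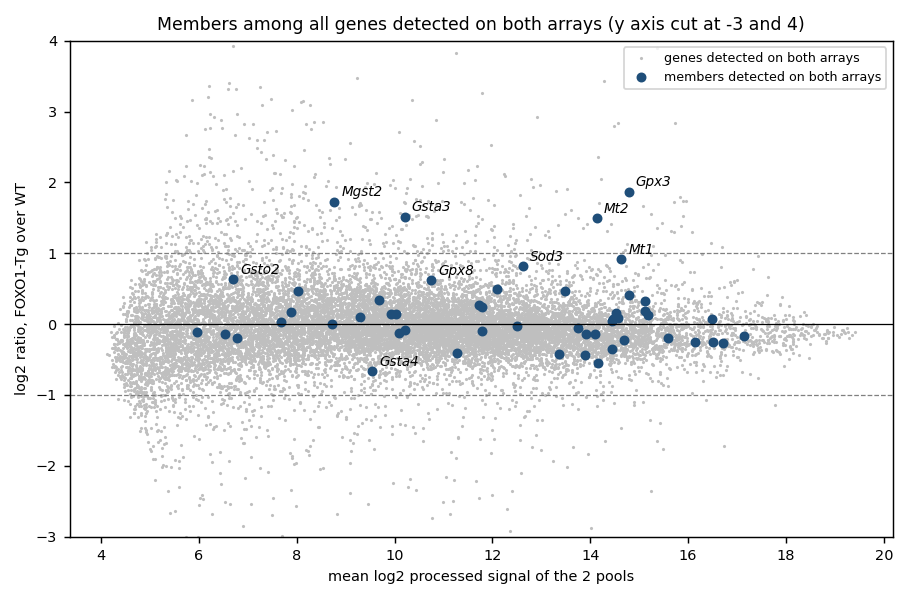
Log2 ratio of FOXO1-Tg over WT (y axis) against the mean log2 processed signal of both pools (x axis) for all genes detected on both arrays (gray) and for the 51 genes described here (blue), with names for those past 1.5-fold and dashed lines at 2-fold. Most blue points lie within the gray band around 0, whose 5th and 95th percentiles were -0.76 and 0.79.

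The pools also differed in cell type markers, most in those of adipocytes, Schwann cells and keratinocytes, and these values stand beside all results below. Of 14 adipocyte markers, all were detected and 10 were more than 2-fold higher in the FOXO1-Tg pool, with a median log2 ratio of 1.82, the lowest at -0.11 (Aqp7) and the highest at 2.88 (Cidea). Their signals, added over the list, came to 412934 in the FOXO1-Tg pool and 174253 in the WT pool. Of 10 Schwann cell markers 6 were more than 2-fold higher (range 0.10 to 3.02, summed signal 105397 in the FOXO1-Tg pool and 73577 in the WT pool). Of 9 detected keratinocyte markers 6 were past 2-fold higher and 1 lower, at a median of 1.15. Their summed signal was 10207 in the FOXO1-Tg pool and 2598 in the WT pool. Beside these counts, 4.2% of all detected genes lay past 2-fold on the higher side and 3.86% on the lower side. The 10 fibroblast markers had a median of 0.54 and the 12 macrophage markers of 0.32, with 0 past 2-fold in either list. All markers of both lists had ratios above 0. Past 1.5-fold higher were 5 fibroblast markers and 1 macrophage marker, beside 9.18% of all genes. The 11 endothelial markers had a median of -0.21 and the 6 detected red blood cell markers of -0.49. Of 8 liver cell markers 5 were detected, 3 with a ratio above 0 and 2 below, from -0.55 (Cyp3a11) to 2.14 (the albumin gene Alb), at a median of 0.51. The part of these cell types in the ratios of the antioxidant genes was not tested. In a whole muscle, more cells of a type and more RNA per cell cannot be told apart.

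Both widely expressed metallothionein genes were higher in the FOXO1-Tg pool, and the third was not. The RefSeq gene table places them side by side on chromosome 8, in the order Mt3, Mt2, Mt1. The stretch around their transcription starts is shown because Mt2 and Mt1 are known targets of the zinc-sensing factor MTF1, which binds metal response elements. Each window spans 300 bases across the start on the plus strand (RefSeq, GRCm38.p6), at chr8:94172368-94172667 for Mt2, chr8:94178839-94179138 for Mt1 and chr8:94152357-94152656 for Mt3. Capitals mark the letters TGCACNC or TGCGCNC on either strand, the metal response element core in 2 forms. Adjoining or overlapping matches would run together, and in these 3 windows none did.
Mt2: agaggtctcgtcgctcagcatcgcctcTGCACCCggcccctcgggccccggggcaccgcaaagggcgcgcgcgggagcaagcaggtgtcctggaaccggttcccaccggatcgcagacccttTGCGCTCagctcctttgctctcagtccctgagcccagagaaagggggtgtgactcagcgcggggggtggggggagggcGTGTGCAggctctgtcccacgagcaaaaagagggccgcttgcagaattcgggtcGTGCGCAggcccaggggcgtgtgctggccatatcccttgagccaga
Mt1: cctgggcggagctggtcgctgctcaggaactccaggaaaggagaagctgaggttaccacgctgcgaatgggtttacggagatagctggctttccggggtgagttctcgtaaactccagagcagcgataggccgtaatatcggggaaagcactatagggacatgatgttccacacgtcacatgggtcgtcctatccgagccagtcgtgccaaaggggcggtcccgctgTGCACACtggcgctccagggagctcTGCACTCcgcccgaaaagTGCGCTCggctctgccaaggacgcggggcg
Mt3: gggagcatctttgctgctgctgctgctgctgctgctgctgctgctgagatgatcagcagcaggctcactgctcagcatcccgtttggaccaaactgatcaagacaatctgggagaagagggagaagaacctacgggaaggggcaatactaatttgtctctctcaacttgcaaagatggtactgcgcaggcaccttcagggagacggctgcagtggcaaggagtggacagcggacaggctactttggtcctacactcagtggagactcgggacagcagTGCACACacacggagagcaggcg

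Mt2 had signals of 31619.5 in the FOXO1-Tg pool and 10234 in the WT pool, a log2 ratio of 1.498 or 2.82-fold. Mt1 had 36411 in the FOXO1-Tg pool and 17635 in the WT pool, a log2 ratio of 0.92 or 1.89-fold. A second, dimmer Mt1 probe, designed to a predicted transcript, had 270.5 in the FOXO1-Tg pool and 223 in the WT pool (0.15), so the Mt1 probes differed by 0.77. Without scaling between the arrays the ratio of the brighter Mt1 probe was 1.05, past 2-fold, and with the median over both probes it was 0.53, short of 1.5-fold. Mt3, best known from the brain, had 217 in the FOXO1-Tg pool and 194 in the WT pool (0.03). The windows of Mt2 and Mt1 held 4 and 3 matches to the metal response element letters, and that of Mt3 held 1. At least 1 match was found in 25.7% of all 32851 RefSeq windows of this length, and at least 3 in 1.97%. Of the 49 genes described here with a window, 15 held at least 1 match, and Gclm, Mt1 and Mt2 held at least 3. Some of these genes have several windows and were counted if any matched, so counts by gene and shares by window are not alike. Such a match describes the letters and is not a measured binding site, and Gclm, with 3 matches, differed little between the pools (log2 ratio 0.10). The FOXO letters TGTTTAC, found in 3.65% of all windows, occurred in the windows of 0 of these 49 genes on either strand.

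Among the superoxide dismutases, the extracellular enzyme was higher in the FOXO1-Tg pool and the intracellular enzymes differed little. Sod3, the secreted copper-zinc dismutase, had signals of 8783.5 in the FOXO1-Tg pool and 4563 in the WT pool (log2 ratio 0.82, 1.76-fold). Sod1, the copper-zinc dismutase of the cytosol, had 99291 in the FOXO1-Tg pool and 86158 in the WT pool (0.08). Sod2, the manganese dismutase of mitochondria, had 102606 in the FOXO1-Tg pool and 113298 in the WT pool (-0.27). Catalase (Cat), which breaks down hydrogen peroxide in peroxisomes, had 4026 in the FOXO1-Tg pool and 3106 in the WT pool (0.24), and its second probe gave 0.06. The median of these 4 genes was 0.16, and only Sod3 lay past 1.5-fold.

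Gpx3, which encodes the secreted glutathione peroxidase of plasma, had the highest ratio of all genes described here that were detected on both arrays. Its signal was 56317 in the FOXO1-Tg pool and 14121 in the WT pool, a log2 ratio of 1.87 or 3.65-fold. Gpx8, a peroxidase of the endoplasmic reticulum membrane, had 2219.8 in the FOXO1-Tg pool and 1323 in the WT pool (0.62, 1.53-fold). Gpx1, the abundant selenium-containing enzyme of cytosol and mitochondria, had 26051 in the FOXO1-Tg pool and 21347 in the WT pool (0.16). Gpx4, which reduces lipid peroxides within membranes, had 88868 in the FOXO1-Tg pool and 97166 in the WT pool (-0.26). Gpx2, known from the gut lining, and Gpx7, another enzyme of the endoplasmic reticulum, had ratios of 0.17 and 0.14. Of the 6 detected glutathione peroxidase genes, then, 1 was past 2-fold, and the median was 0.16.

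The peroxiredoxin genes stayed within 1.5-fold, all 6 of those detected. Prdx2, a cytosolic enzyme that is also plentiful in red blood cells, had 34223 in the FOXO1-Tg pool and 23653 in the WT pool (0.40). The 6 detected red blood cell markers all had ratios below 0, and the part of these cells in the Prdx2 ratio was not tested. Prdx3, the mitochondrial enzyme, had 20567 in the FOXO1-Tg pool and 24085 in the WT pool (-0.36), and the SD of this ratio over the probe's 10 spots was 0.03. Prdx6, which works with glutathione in place of thioredoxin, had 48249 in the FOXO1-Tg pool and 50743 in the WT pool (-0.20). Its 4 probes ran from -0.36 to 0.31, the last on a dim probe with a scanner error of 0.39. The cytosolic Prdx1, the Prdx4 of the endoplasmic reticulum and Prdx5, found in several compartments, lay between 0.12 and 0.18, and the second Prdx1 probe gave -0.11. In the thioredoxin system that recharges these enzymes, the mitochondrial genes were the lower ones. Txn2, the mitochondrial thioredoxin, had 69444 in the FOXO1-Tg pool and 75961 in the WT pool (-0.26), and its reductase Txnrd2 had 9463 in the FOXO1-Tg pool and 11579.9 in the WT pool (-0.42). The cytosolic thioredoxin Txn1 and its reductase Txnrd1 had ratios of 0.09 and -0.14.

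The 20 detected superoxide dismutase, catalase, peroxidase, peroxiredoxin and thioredoxin genes were also arranged by the place where their proteins mainly work, a grouping chosen after the values were seen. The mitochondrial Sod2, Prdx3, Txn2 and Txnrd2 all had ratios below 0, from -0.42 to -0.26, each past 1 scanner error with this scaling. In other settings Sod2 and Txn2 came within 1 scanner error of 0, at -0.14 and -0.13 at the nearest. The 7 cytosolic genes ran from -0.20 for Prdx6 to 0.40 for Prdx2. Of the 3 genes whose proteins are found at several sites, Gpx4 had -0.26, level with the nearest mitochondrial value, and Gpx1 and Prdx5 had 0.16 and 0.18. The endoplasmic reticulum genes ran from 0.14 to 0.62, and Sod3 and Gpx3, both secreted, had 0.82 and 1.87. The median gene on the arrays stood at -0.07.

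**Figure D3:**
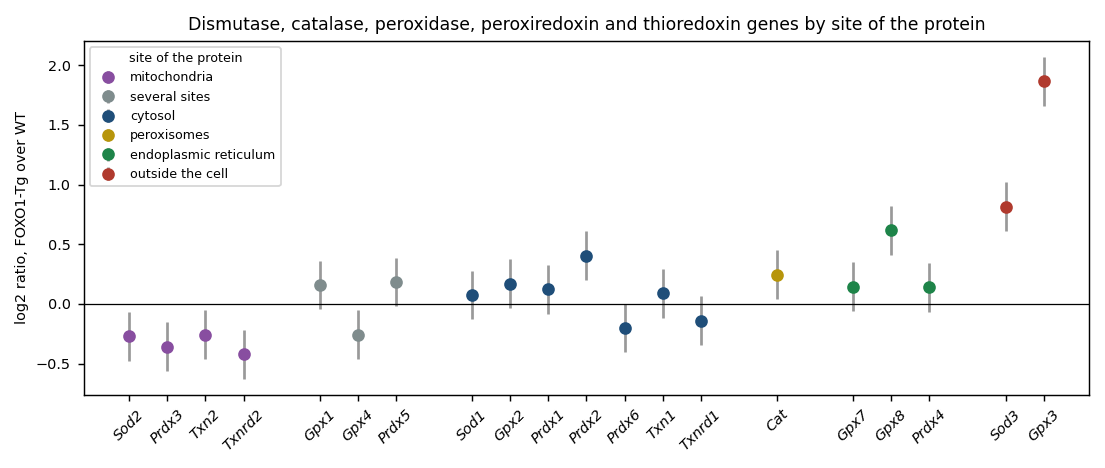
Log2 ratio of FOXO1-Tg over WT (y axis) for the 20 detected genes of these families, arranged by the site of the protein, with bars for the scanner error. The 4 mitochondrial genes lie below 0 (-0.42 to -0.26), the 7 cytosolic genes on both sides of 0, and the 2 genes of secreted proteins above 0 (0.82 and 1.87).

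The genes that make and recycle glutathione itself were nearly level between the pools. Gclc, the catalytic subunit of the rate-limiting glutamate-cysteine ligase, had 3869.8 in the FOXO1-Tg pool and 2936 in the WT pool (0.27). Gclm, its modifier subunit, had 681 in the FOXO1-Tg pool and 583 in the WT pool (0.10). Gss, the glutathione synthetase, had 444 in the FOXO1-Tg pool and 407 in the WT pool (0.00), and Gsr, which reduces oxidized glutathione, had 5972 in the FOXO1-Tg pool and 5584 in the WT pool (-0.03). The median of the 4 genes was 0.05 and none passed 1.5-fold.

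The cytosolic glutathione transferases, which attach glutathione to electrophiles, differed within and between families. Gsta3, of the alpha family, was past 2-fold. Its start region, chr1:21240335-21240634 on the plus strand (RefSeq, GRCm38.p6), is shown because it held the antioxidant response element letters TGACNNNGC, the sequence that NRF2 binds, here in capitals.
Gsta3: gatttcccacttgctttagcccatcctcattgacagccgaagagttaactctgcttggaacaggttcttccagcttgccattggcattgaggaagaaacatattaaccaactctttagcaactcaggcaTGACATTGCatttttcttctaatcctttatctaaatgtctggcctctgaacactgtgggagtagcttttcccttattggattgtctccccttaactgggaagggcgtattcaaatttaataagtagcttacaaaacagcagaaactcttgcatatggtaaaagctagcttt

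Gsta3 had signals of 2088 in the FOXO1-Tg pool and 669 in the WT pool (log2 ratio 1.51, 2.85-fold), and its second probe had 1134 in the FOXO1-Tg pool and 322 in the WT pool (1.69). The antioxidant response element letters, searched on both strands, were found in 12.4% of all windows and in those of 10 of the 49 genes, which were Gclm, Gsta3, Gstm5, Gstm7, Mgst1, Mt2, Nfe2l2, Prdx1, Sod1 and Txnrd1. Here too the share counts windows and the other number counts genes, some of which have several windows. Of these 10, Gsta3 and Mt2 were past 2-fold higher, beside 4.2% of all genes, and the other ratios ran from -0.44 to 0.47. Gpx3, Mgst2 and Gstt4, also past 2-fold, held no match, and a link between letters and ratios was not tested. Gsta4, which clears the lipid peroxidation product hydroxynonenal, was the only gene past 1.5-fold lower, with 618 in the FOXO1-Tg pool and 899 in the WT pool (-0.67, 1.59-fold lower). The SD of its ratio over 10 spots was 0.09. With scaling to the median (-0.56) or no scaling (-0.54), Gsta4 fell short of 1.5-fold, and no detected gene was then past 1.5-fold lower. The dim Gsta2 probe had 63.2 in the FOXO1-Tg pool and 62.2 in the WT pool (-0.11).

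All 4 genes of the theta family had ratios above 0, and the gene table places them in 1 cluster on chromosome 10. Gstt4 was detected in the FOXO1-Tg pool only, with a signal of 105 there and 4.94 in the WT pool. Set against the lowest signal well above background on the WT array, 17.5, it was 5.48-fold higher, the bound at which it was counted. Gstt1, which acts on small halogenated compounds, had 5423 in the FOXO1-Tg pool and 3514 in the WT pool (0.50), Gstt2 had 321 in the FOXO1-Tg pool and 213 in the WT pool (0.46), and Gstt3 had 966 in the FOXO1-Tg pool and 695 in the WT pool (0.35). Normexp background correction with quantile normalization gave Gstt4 a log2 ratio of 1.06, still past 2-fold but below that bound, which thus depends on the processing. Gstt1 to Gstt3 stayed within 1.5-fold, but without scaling Gstt1 (0.63) and Gstt2 (0.59) passed it, and with scaling to the median Gstt1 did (0.61). The 2 omega genes, neighbors on chromosome 19 whose enzymes reduce dehydroascorbate, differed in direction. Gsto2 had 136 in the FOXO1-Tg pool and 80.3 in the WT pool (0.63, 1.55-fold; 0.44 with normexp, short of 1.5-fold), whereas Gsto1 had 15768 in the FOXO1-Tg pool and 21012.5 in the WT pool (-0.54). The 7 mu genes Gstm1 to Gstm7, clustered on chromosome 3, lay between -0.19 and 0.07. Gstp1 and Gstp2, of the pi family, had -0.23 and -0.16, and Gstp2 had signals of 143538 in the FOXO1-Tg pool and 146896 in the WT pool. Genes within the mu and pi families are near-identical copies in places, so a probe may read more than 1 of them and their single values are uncertain.

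The 3 microsomal glutathione transferases, which sit in membranes, differed in direction. Mgst2, which can also join glutathione to a leukotriene precursor, had 829 in the FOXO1-Tg pool and 228 in the WT pool (log2 ratio 1.73, 3.32-fold). Mgst3 had 41711 in the FOXO1-Tg pool and 30523 in the WT pool (0.32). Mgst1, of the endoplasmic reticulum and outer mitochondrial membrane, had 13619 in the FOXO1-Tg pool and 16844 in the WT pool (-0.44), and its second probe gave -0.35. Normexp background correction with quantile normalization gave Mgst2 a ratio of 1.42, still past 2-fold.

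**Figure D4:**
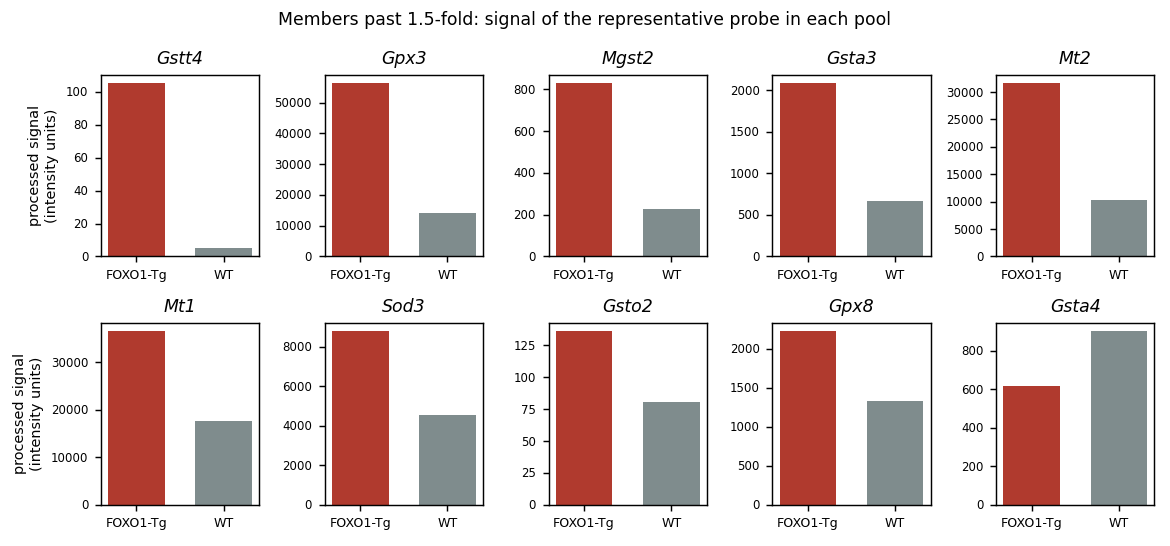
Processed signal (y axis, intensity units, own scale for each gene) of the representative probe in the FOXO1-Tg pool (red) and the WT pool (gray) for the 10 genes past 1.5-fold, 1 array per pool and hence no error bar. In 9 panels the FOXO1-Tg bar is taller, and in the last, Gsta4, it is shorter (618 against 899).

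The regulator of the antioxidant response was higher in the FOXO1-Tg pool by less than 1.5-fold, and the NRF2 targets Nqo1 and Hmox1 were not. Nfe2l2, which encodes NRF2, had 14070.6 in the FOXO1-Tg pool and 9270.5 in the WT pool (0.47), and Keap1, its inhibitor, had 14164 in the FOXO1-Tg pool and 13416 in the WT pool (-0.05). Nqo1, a quinone reductase, had 2263 in the FOXO1-Tg pool and 2753 in the WT pool (-0.41). Hmox1, the inducible heme oxygenase, had 1208 in the FOXO1-Tg pool and 1166 in the WT pool (-0.08), and a second, dimmer probe had 111 in the FOXO1-Tg pool and 152 in the WT pool (-0.58). None of the 4 genes passed 1.5-fold and their median was -0.06, but without scaling between the arrays Nfe2l2 stood at 0.60, past 1.5-fold. Other genes linked to NRF2 had a median of 0.02. Of 27 detected, 2 were more than 2-fold higher and 1 lower, beside 4.2% and 3.86% of all genes. The higher ones were Abcc3, an exporter of conjugates, with 496 in the FOXO1-Tg pool and 115 in the WT pool (1.98), and the aldo-keto reductase gene Akr1c13 with 428 in the FOXO1-Tg pool and 152 in the WT pool (1.36). The conjugate exporter gene Abcc2 was detected in the WT pool only, with 3.43 in the FOXO1-Tg pool and 27.04 in the WT pool, and was counted at a bound of 2.03-fold lower. Cul3, the ligase scaffold that works with KEAP1, stood at -0.79.

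Probes of the same gene mostly gave close ratios. Of the 16 genes with more than 1 probe detected on both arrays, 12 had probes within 0.2 of each other, and the median gap was 0.13. The largest gap was the 0.77 of Mt1, and none exceeded 1.

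Around these genes, a list was made for the supply and breakdown of cysteine, from which glutathione and metallothioneins take their sulfur. The list was chosen with earlier results of these data known, and the study had picked Cdo1 and Slc1a5 from these same arrays. Its count is therefore no independent evidence. Of 12 detected genes 4 were more than 2-fold higher in the FOXO1-Tg pool and 0 lower, beside 4.2% and 3.86% of all genes, and the median was 0.26. Slc1a1, a transporter of glutamate and cysteine, had 3743 in the FOXO1-Tg pool and 170.2 in the WT pool (log2 ratio 4.33, 20.1-fold). Slc7a10, a transporter of small neutral amino acids, had 1194 in the FOXO1-Tg pool and 216 in the WT pool (2.33). Cdo1, the dioxygenase that degrades cysteine, had 2828 in the FOXO1-Tg pool and 771 in the WT pool (1.74). The neutral amino acid transporter gene Slc1a5 had 6722 in the FOXO1-Tg pool and 2428 in the WT pool (1.34). The list thus holds genes for uptake and for breakdown among those past 2-fold. At the low end were Gnmt, a glycine methyltransferase, at -0.58 and the transporter gene Slc1a4 at -0.28, and Slc7a11, the cystine importer, was not detected.

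Of 21 other glutathione enzyme genes 1 was past 2-fold higher and 1 lower, beside 4.2% and 3.86% of all genes. The median was -0.13. Chac1, an enzyme that degrades glutathione, had 116037 in the FOXO1-Tg pool and 31671 in the WT pool (1.74). Gdap1, a mitochondrial outer membrane protein built like a glutathione transferase, had 1274 in the FOXO1-Tg pool and 4088 in the WT pool (-1.81). Gstz1 stood at 0.44 and the oxoprolinase gene Oplah at -0.73. Of 18 thioredoxin-linked genes 1 was past 2-fold higher, beside 4.2% of all genes, and the median was -0.04. It was Sesn1, which encodes a sestrin, with 8792 in the FOXO1-Tg pool and 3654 in the WT pool (1.14). The methionine sulfoxide reductase genes of this list went both ways, Msrb1 at 0.81 and Msra and Msrb2 at -0.75 and -0.45.

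A list of other selenoproteins and of selenoprotein synthesis left out the glutathione peroxidases, the thioredoxin reductases and Msrb1 given above. Gpx3, past 2-fold higher, was thus not in it. Of its 18 detected genes none passed 2-fold (median -0.04), beside 4.2% of all genes higher and 3.86% lower. Within this list the deiodinase gene Dio2 at 0.64 and the selenium carrier gene Selenop at 0.28 were highest. Selenoh and Pstk, both at -0.45, were lowest. Of 22 zinc and copper handling genes 1 was past 2-fold lower, beside 3.86% of all genes, and the median was -0.01. It was the zinc exporter gene Slc30a2, with 183 in the FOXO1-Tg pool and 693 in the WT pool (-2.05). Mt4, the metallothionein of stratified epithelia, had 54.99 in the FOXO1-Tg pool and 30.1 in the WT pool (0.74), Cp, which encodes ceruloplasmin, 0.47, and the copper pump gene Atp7b -0.73. These values stood beside the ratios of Mt2 and Mt1, while Mtf1, the metal-sensing factor, was at -0.13.

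The next list holds enzymes that make NADPH, the reductant of the glutathione and thioredoxin reductases, together with kinases that make its precursor NADP and non-oxidative enzymes of the pentose phosphate pathway. Of 15 detected genes 11 had a ratio above 0, beside 41.7% of all genes detected on both arrays. Their median was 0.22, against -0.07 for all those genes. H6pd, the hexose phosphate dehydrogenase of the endoplasmic reticulum, had 11922 in the FOXO1-Tg pool and 5403 in the WT pool (1.01). It was the only gene of the list past 2-fold, beside 4.2% of all genes past 2-fold higher. Tkt, a transketolase of the pentose phosphate pathway, had 0.82, and at the low end the mitochondrial NAD kinase gene Nadk2 had -0.52 and Rpia, a ribose phosphate isomerase, -0.30. Of 17 detected genes listed for sources of superoxide and peroxide 1 was past 2-fold higher, beside 4.2% of all genes, and the median was 0.19. The list also held the uncoupling protein genes Ucp2 and Ucp3, which are not such sources. Past 2-fold was the amine oxidase gene Aoc3, with 5015 in the FOXO1-Tg pool and 1388 in the WT pool (1.72). Maob, a monoamine oxidase of mitochondria, stood at 0.96, while the uncoupling protein gene Ucp3 and the oxidase organizer gene Noxo1 stood at -0.58 and -0.29. Gpx3, Mt2, Chac1, Gdap1, Cdo1, Slc1a5 and Aoc3, and some of the adipocyte and Schwann cell markers, are among genes that the study picked from these same arrays, so their ratios are no independent evidence.

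**Figure D5:**
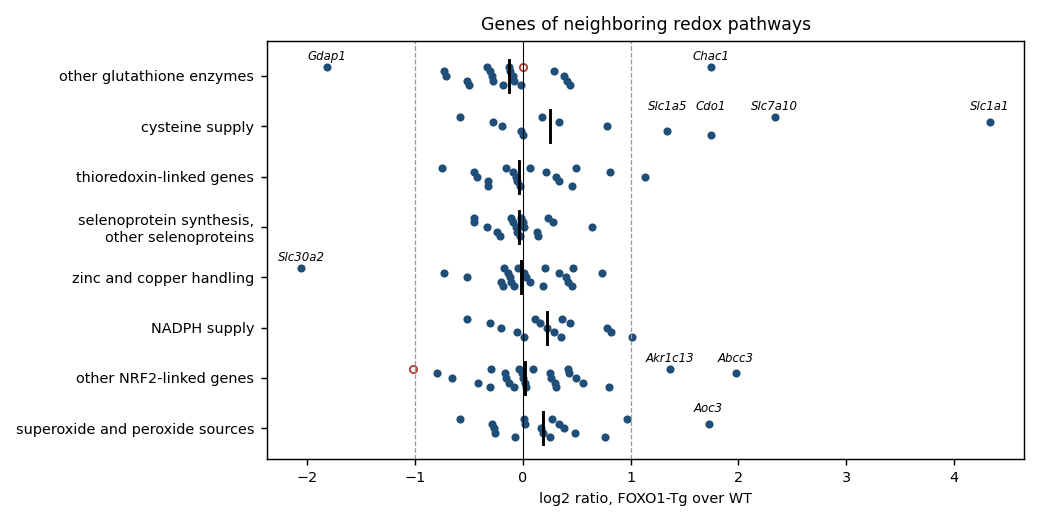
Log2 ratio of FOXO1-Tg over WT for the detected genes of 8 neighboring redox lists, 1 row per list, with a black bar at each median, dashed lines at 2-fold and names for genes beyond 1.2 in either direction. Open red circles are genes detected on 1 array only, drawn at their bound. The cysteine supply list has 4 genes past the upper line, led by Slc1a1 at 4.33, and the other lists have at most 2. Of all detected genes 4.2% were past that line.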

How the data were processed

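Total RNA of gastrocnemius was pooled by genotype, labeled with cyanine 3 and hybridized, 1 array for FOXO1-Tg (5 mice) and 1 for WT (6 mice), both on the same slide, so slide does not separate the groups. The groups were taken from the sample labels. Intensity values, as the authors deposited them, are Agilent Feature Extraction processed signals (version 11.0.1.1 by the file headers, 9.5 by the submitters' processing notes), background-subtracted and unscaled. The deposited value table holds the same signals, with a largest difference of 0 over 62976 spots and medians of 49.998 (FOXO1-Tg) and 50.3 (WT). Per the paper's methods, signal analysis followed an earlier article.

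From the deposited signals, log2 values were taken relative to the 75th percentile of 59305 non-control spots, 237 outlier spots were left out (0 of them on a probe described here), and spots of a probe were averaged, leaving 55670 probes. Probes with at least 50% of spots well above background were called detected. Names came from transcripts matched to a RefSeq gene table (GRCm38.p6), which named 28329 probes. The array design uses mm9, so gene order but no gene position was taken from that table. A gene detected on 1 array was counted at a bound, its signal set against the other array's own value or, where that was less, that array's dimmest signal still well above background (14.6 for FOXO1-Tg, 17.5 for WT). The median spot signal was 3.24 (FOXO1-Tg) and 3.21 (WT) times the local background, and having 1 array per group limits the precision.

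The genes, lists and rules were chosen with earlier results of these data known. Signals of both pools are given for genes past 1.5-fold, the brightest gene of each role group, Mt1, Mt2, Gpx1, Gpx3, Sod1, Sod2, Cat, Nfe2l2, Keap1, Gclc, Gclm, Nqo1 and Hmox1. Of each neighboring list, the 2 highest and 2 lowest genes and any past 2-fold are named. Mt3, Gss, Gsr, Gpx4, Gpx8 and further genes described with signals, as well as Mtf1 and Slc7a11, were added after their values were seen. Scripts were tested on simulated data. Alternatives covered scaling, background correction (normexp, offset 50), filters, a floor of 32, the probe rule and the threshold. Python 3.11.15 (numpy 2.4.6, pandas 2.3.3, matplotlib 3.10.9) and R 4.3.3 with limma 3.58.1 were used. Other experiments of the study were not analysed here.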

Additional observations from a re-analysis of the deposited data

How the results depend on the processing

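Across 11 other settings the count of genes past 2-fold higher was 5, except 4 where detection on both arrays was required (Gstt4 drops out by construction) and 6 with median scaling, no scaling or the deposited table, where Mt1 passes. At a 1.5-fold threshold the counts were 9 higher and 1 lower in the main setting, 10 and 0 with median scaling, 12 and 0 without scaling or in the deposited table, 9 and 3 without the filter on dim probes, and 8 or 9 and 1 in the rest, a check chosen after the data were seen. None was more than 2-fold lower in any setting at 2-fold. The median of the 52 genes ran from 0.04 without a filter on dim probes (56 genes) to 0.20 without scaling. The median of the metallothioneins was 0.53 with the median over probes, because the second Mt1 probe then counts. Of 571 values of single genes, 566 stayed within the scanner error of the main value. The other 5 were Gstt4 (1.06 with normexp, 4.28 without the filter), Mgst2 (1.42 with normexp), and Mt1 (0.53) and Hmox1 (-0.33) with the median over probes. Signs changed in 8 genes, all within 0.14 of 0 in the main setting: Gsr, Gss, Gsta2, Gstm3, Gstm4, Gstm6, Hmox1 and Keap1. Scaling moved the median of all genes by up to 0.13, and the 4 mitochondrial genes kept ratios below 0 throughout. Sod2 and Txn2, at -0.14 and -0.13 at the nearest, then lay within 1 scanner error of 0. Over all genes, 700 were higher and 643 lower past 2-fold in the main setting, 830 and 507 with median scaling, 836 and 450 with quantile normalization, 856 and 490 without scaling or in the deposited table, 891 and 417 with cyclic loess, 408 and 213 with normexp, 1020 and 1737 without the filter, and 582 and 364 with the floor; the cause was not tested. No paired analysis was possible because there is 1 pooled array for either genotype. Dim probes such as Gstt4 and Gsta2 carry the largest scanner errors, and the spread between mice is unknown.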
